A study of Mus musculus with 4 samples.

Results

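The 8 genes Cpa3, Mcpt8, Prss34, Gzmb, Fcer1a, Ms4a2, Cma1 and Hdc, which mark mast cells and basophils, were followed across 4 arrays of mouse bone marrow progenitors. They were chosen by symbol, with earlier results of these data known. Every probe set that the array's annotation table gave to 1 of the 8 symbols was taken. The choice gave 9 probe sets of 7 genes among the 18193 named genes of the series. Hdc and Ms4a2 had 2 probe sets each, and Prss34 was not analysed here because that table paired no probe set with it.

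The arrays held 2 sorted cell populations from 2 pools of mice, 1 array per group. LSK cells (Lin-ckit+Sca1+) contain the blood stem cells and multipotent progenitors of the marrow, and MP cells (Lin-ckit+Sca1-) are the myeloid progenitors. The Smo-deficient mice were Smo flox/flox, Mx1Cre+, so that Cre, under the interferon-responsive Mx1 promoter, could delete Smo, the gene of the hedgehog pathway protein Smoothened. The WT mice were Smo flox/flox, Mx1Cre-, and so carried the floxed alleles too. All mice received polyI:C, an inducer of interferon, at 20 ug/g in 3 injections, and 6 weeks passed before the marrow was collected. For each genotype the marrow of 4 mice of both sexes was combined and then sorted, so each genotype is 1 pool that gave both its LSK and its MP cells. The age was not given, and the strain label ended in another number on each array, C57BL/6x130 for Smo-deficient LSK, C57BL/6x129 for WT LSK, C57BL/6x132 for Smo-deficient MP and C57BL/6x131 for WT MP. Arrays of 1 pool thus carry different strain labels, so these numbers may be a labelling error and were not used. The Mx1 promoter is not restricted to blood cells, and no array has a replicate of its own group.

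Mast cells and basophils are granule-bearing cells that carry the high-affinity IgE receptor and arise from myeloid progenitors in the marrow. Basophils leave the marrow mature, while mast cells mature in the tissues they settle in. Their granules hold histamine, proteoglycans and proteases, which are set free when antigen crosslinks the bound IgE. Carboxypeptidase A3 (Cpa3) and the chymase encoded by Cma1 are mast cell granule proteases, Mcpt8 and Prss34 encode basophil proteases in the mouse, and granzyme B (Gzmb) is a serine protease of cytotoxic lymphocytes that mouse mast cells and basophils can also make. Fcer1a encodes the alpha chain of the IgE receptor, which binds IgE, and Ms4a2 its beta chain, which amplifies the signal. Histidine decarboxylase (Hdc) makes histamine. Cpa3 and Hdc are also transcribed in immature marrow cells that are not committed to these lineages. The transcription factors GATA1 and GATA2 act in both lineages.

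Promoters are shown because most of the measured genes were lower in LSK than in MP cells, and because GATA factors act in these lineages. The 250 bases before each gene's start were searched on both strands for the GATA motif spelled AGATAA, with AGATAG as a variant and with the forms TGATAA or else TGATAG counted too, and GATA matches are printed in capitals. All sequences are from RefSeq on GRCm38.p6, read 5′ to 3′ on the gene's strand, and all 8 genes had an entry.

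Cpa3 (chr3:20242182-20242431, minus strand): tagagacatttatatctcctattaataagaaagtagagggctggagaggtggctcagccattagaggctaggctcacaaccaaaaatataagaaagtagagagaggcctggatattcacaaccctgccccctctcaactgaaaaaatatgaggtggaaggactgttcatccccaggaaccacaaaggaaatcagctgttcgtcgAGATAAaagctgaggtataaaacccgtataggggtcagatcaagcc
Ms4a2 (chr19:11623720-11623969, minus strand): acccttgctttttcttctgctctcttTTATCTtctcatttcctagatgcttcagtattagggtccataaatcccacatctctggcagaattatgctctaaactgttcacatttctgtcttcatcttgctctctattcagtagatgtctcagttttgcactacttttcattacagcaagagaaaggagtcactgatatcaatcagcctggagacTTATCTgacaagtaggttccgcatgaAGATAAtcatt
Fcer1a (chr1:173227230-173227479, minus strand): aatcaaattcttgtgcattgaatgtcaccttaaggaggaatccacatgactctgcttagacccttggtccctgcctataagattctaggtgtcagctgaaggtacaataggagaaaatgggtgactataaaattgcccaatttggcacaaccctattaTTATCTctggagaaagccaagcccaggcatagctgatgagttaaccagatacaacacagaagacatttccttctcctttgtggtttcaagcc
Mcpt8 (chr14:56085198-56085447, minus strand): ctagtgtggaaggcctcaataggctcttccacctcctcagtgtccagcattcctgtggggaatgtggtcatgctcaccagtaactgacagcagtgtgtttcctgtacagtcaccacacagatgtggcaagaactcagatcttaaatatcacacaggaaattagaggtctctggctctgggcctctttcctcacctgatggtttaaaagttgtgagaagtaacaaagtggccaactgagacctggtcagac

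Of the 8 promoters, 6 held at least 1 GATA match, against 26.5% of 32851 promoters of the same length in the table. Cpa3 had 1 match, from 46 to 41 bases before the start. Ms4a2 had 3, at 224 to 219, 37 to 32 and 11 to 6 bases before the start, of which the first pair lay on the opposite strand. Fcer1a had 1, on the opposite strand from 92 to 87 bases before the start. Among those not printed, Prss34 had 1 match from 31 to 26 bases, Cma1 had 1 from 79 to 74 bases and Hdc had 1 from 221 to 216 bases before the start. Mcpt8 and Gzmb had none in this window, and the Mcpt8 sequence is shown as the one without capitals. The motif CATGTG, bound by the mast cell factor MITF among others, was in the promoters of Prss34 and Fcer1a and in 12.3% of all promoters. A match is a run of letters and was not tested for binding. Cpa3, Ms4a2, Cma1 and Hdc had a match and were lower in LSK than in MP. Gzmb and Mcpt8 had none and were lower too, by -1.25 and -0.64 in log2 intensity, and Fcer1a had a match and differed by 0.38. Whether the matches bear on these differences was not tested.

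Every level below is a log2 intensity, and a difference between levels of 1 is a 2-fold change. Levels are compared only within a probe set, since brightness differs between probe sets. Probe sets entered the test at a mean level above 7.23, the median of all probe sets, which 6 of the 9 had: those of Cpa3, Mcpt8 and Gzmb, 1 of Ms4a2 and both of Hdc. Fcer1a, Cma1 and the other Ms4a2 probe set were dimmer, and their differences depend more on background. Correlations between arrays across all probe sets were 0.980 to 0.994. The targeted gene Smo had log2 levels of 6.96 in Smo-deficient LSK and 10.02 in WT LSK, and 7.94 in Smo-deficient MP and 9.72 in WT MP on 1427048_at. The Smo-deficient pool was lower in both populations, by -3.05 in LSK and -1.78 in MP here and by -4.68 and -4.05 on the other Smo probe set. Ly6a, which encodes Sca1, was not analysed here. The sex-linked genes differed between the pools as well, with the Y-linked Kdm5d higher in the Smo-deficient pool by 1.67 in LSK and by 1.13 in MP, and Xist lower, at -0.89 and -0.47. The Actb probe sets at the 3′ end exceeded those at the 5′ end, a measure that moves with RNA quality, by 1.53 in Smo-deficient LSK and 1.55 in WT LSK, against 1.31 in Smo-deficient MP and 1.34 in WT MP. The same measure for Gapdh was 1.78 in Smo-deficient LSK and 1.57 in WT LSK, and 1.60 in Smo-deficient MP and 1.59 in WT MP. The poly-A spikes, added before amplification, were higher in LSK than in MP by 0.59 ± 0.18 in the Smo-deficient pool and 0.44 ± 0.25 in the WT pool (SD over 12 probe sets). In the Smo-deficient pool the spikes were lower than in the WT pool, with differences of -0.15 ± 0.15 for LSK and -0.30 ± 0.14 for MP. The part of these differences in the results below was not tested.

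LSK cells had lower levels than MP cells of 5 of the 7 measured genes by the test, and of Cma1 by values below the filter, while Fcer1a was not lower. Hdc, Gzmb and Ms4a2 were more than 2-fold lower in LSK when both pools were averaged, and Mcpt8 and Cpa3 were lower by 1.56-fold and 1.34-fold. All 6 tested probe sets, of 5 genes, fell in LSK at an adjusted p under 0.05 by limma, fitted over 22518 probe sets with the pool as a block, and none rose. By the same rule 7.19% of all tested probe sets fell. Since the members were chosen with earlier results of these data known, that share is a description and no test of them as a set. The median difference of all 9 member probe sets was -0.64, beside -0.00 over all probe sets past the filter. In such bulk samples, fewer cells of a type and less RNA per cell cannot be told apart.

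**Figure D1:**
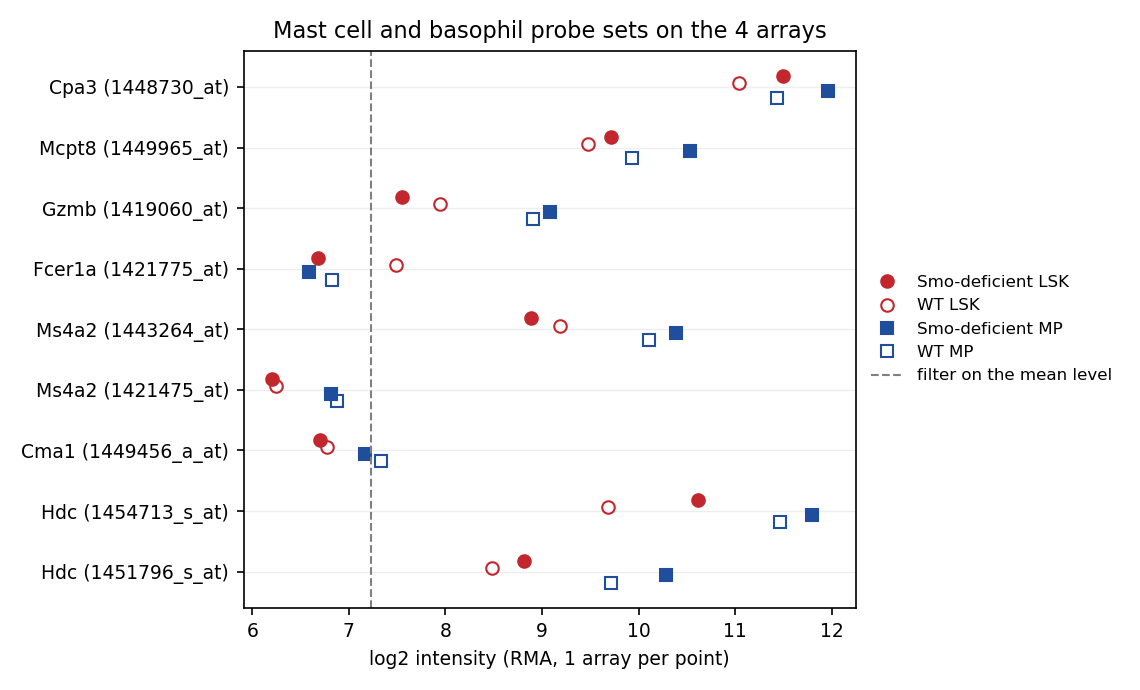
Log2 intensity (x axis) of the 9 probe sets (rows) on each of the 4 arrays: filled circles Smo-deficient LSK, open circles WT LSK, filled squares Smo-deficient MP, open squares WT MP, and a dashed line at the filter level of 7.23. In 7 of the 9 rows both LSK points lie left of both MP points, and the exceptions are Cpa3 and Fcer1a. The same holds for 26.4% of all probe sets past the filter.

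Among the granule proteases, Gzmb differed most. The log2 level of Gzmb was 7.55 in Smo-deficient LSK and 7.94 in WT LSK, against 9.08 in Smo-deficient MP and 8.91 in WT MP. Both LSK values were below both MP values, and the mean difference was -1.25 ± 0.15 (SE), 2.39-fold lower in LSK (limma, adjusted p = 0.00259). Mcpt8, the basophil protease gene, had log2 levels of 9.71 in Smo-deficient LSK and 9.48 in WT LSK, and 10.53 in Smo-deficient MP and 9.93 in WT MP. Its groups did not overlap either, with a difference of -0.64 ± 0.13 (adjusted p = 0.0168). Its 2 pools gave -0.82 in the Smo-deficient pool and -0.46 in the WT pool.

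Cpa3, the carboxypeptidase gene, was the member whose LSK and MP levels lay closest among those tested. Its log2 levels were 11.50 in Smo-deficient LSK and 11.04 in WT LSK, against 11.96 in Smo-deficient MP and 11.43 in WT MP. The LSK array of the Smo-deficient pool was thus above the MP array of the WT pool, so the groups overlapped, while within each pool LSK was lower, by -0.46 in the Smo-deficient and -0.39 in the WT pool. The blocked fit gave -0.42 ± 0.09 (limma, adjusted p = 0.0215). Cma1, the mast cell chymase gene, stayed near the filter level, with 6.70 in Smo-deficient LSK and 6.77 in WT LSK, and 7.17 in Smo-deficient MP and 7.33 in WT MP. It was not in the main test, and with no filter it differed by -0.51 ± 0.11 (adjusted p = 0.0254).

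For the IgE receptor the alpha and beta chains did not run together. Ms4a2, the beta chain gene, had log2 levels of 8.89 in Smo-deficient LSK and 9.19 in WT LSK, against 10.39 in Smo-deficient MP and 10.11 in WT MP on 1443264_at. Both LSK arrays were below both MP arrays there, by -1.21 ± 0.16, 2.31-fold lower (limma, adjusted p = 0.00346). Its dimmer probe set 1421475_at had 6.20 in Smo-deficient LSK and 6.25 in WT LSK, and 6.82 in Smo-deficient MP and 6.88 in WT MP. That probe set differed by -0.63 ± 0.11 with no filter (adjusted p = 0.0098), the same direction at a smaller size. Fcer1a, the alpha chain gene, was dim everywhere, with 6.68 in Smo-deficient LSK, 7.49 in WT LSK, 6.59 in Smo-deficient MP and 6.83 in WT MP. Its highest value was in WT LSK, and its difference of 0.38 ± 0.15 did not pass with no filter (adjusted p = 0.164). It was the only 1 of the 9 probe sets whose mean was higher in LSK.

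Hdc, which makes histamine, had the largest difference of the members on both of its probe sets by the mean of the pools, while in the Smo-deficient pool Gzmb (-1.53) and Ms4a2 (-1.50) differed more. On 1454713_s_at the log2 level was 10.62 in Smo-deficient LSK and 9.68 in WT LSK, against 11.80 in Smo-deficient MP and 11.46 in WT MP. The difference was -1.48 ± 0.15, 2.78-fold lower in LSK (limma, adjusted p = 0.0015). On 1451796_s_at the level was 8.81 in Smo-deficient LSK and 8.48 in WT LSK, against 10.28 in Smo-deficient MP and 9.71 in WT MP. The difference there was -1.35 ± 0.12 (adjusted p = 0.000823). Neither probe set had overlapping groups. The probe sets did not share the order of the pools: on 1454713_s_at LSK minus MP was -1.18 in the Smo-deficient and -1.77 in the WT pool, and on 1451796_s_at it was -1.46 and -1.23.

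**Figure D2:**
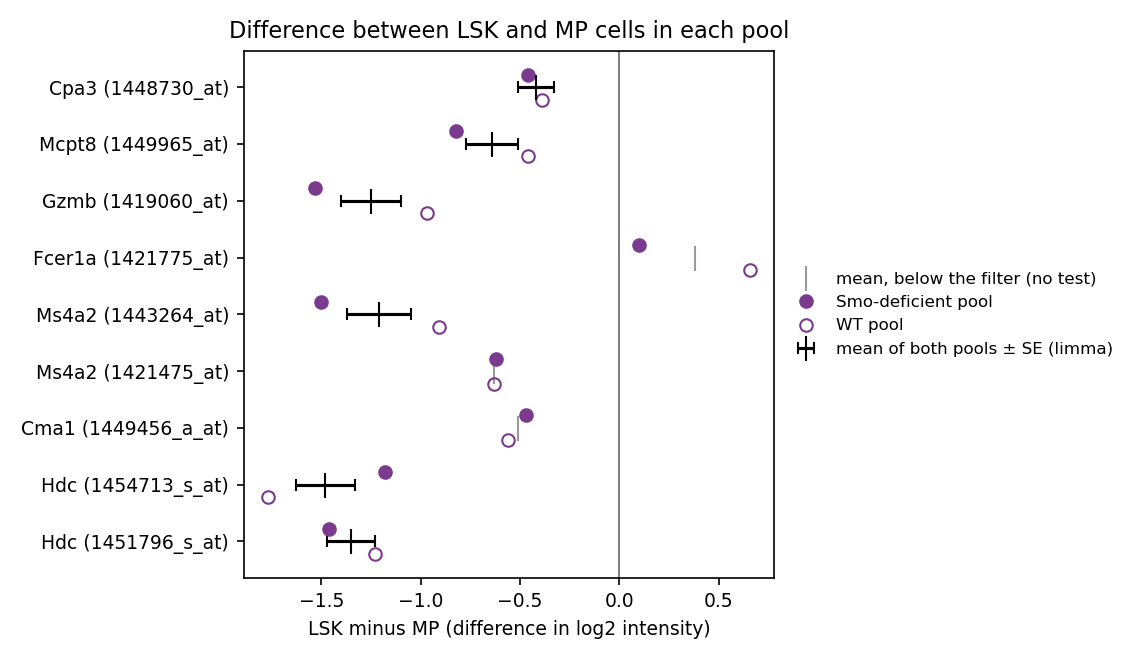
LSK minus MP difference in log2 intensity (x axis) for the 9 probe sets: filled points the Smo-deficient pool, open points the WT pool, black bars the mean of both pools with the SE from limma, grey ticks the mean of the 3 probe sets below the filter. All points but those of Fcer1a lie below 0.

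LSK was lower than MP in both pools for 8 of the 9 probe sets, and Fcer1a was higher in both, by 0.10 in the Smo-deficient pool and 0.66 in the WT pool. The member median of LSK minus MP was -0.82 in the Smo-deficient pool and -0.63 in the WT pool. For 7 of the 9, both LSK arrays were below both MP arrays, as for 26.4% of all probe sets past the filter. Cma1 and Ms4a2 on 1421475_at, among these 7, are themselves below the filter. The block matters for part of the members: without it the differences kept their size, but 3 of the 6 tested probe sets no longer passed. Calls became fewer in general: 1058 of the 22518 tested probe sets passed without the block, against 5013 with it. By limma without the block the adjusted p became 0.346 for Cpa3, 0.173 for Mcpt8 and 0.0624 for Hdc on 1454713_s_at. Gzmb (0.0199), Ms4a2 (0.0259) and Hdc on 1451796_s_at (0.0366) still passed. The residual of the blocked fit rests on 2 pools of different genotype, so these p-values leave out how mice of 1 genotype vary among themselves.

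Between the genotypes, Hdc, Cpa3 and Mcpt8 were higher in the Smo-deficient pool in both populations, by less than 2-fold. Gzmb and the brighter Ms4a2 probe set were lower in LSK and higher in MP of that pool, and Fcer1a was lower in both. None of the 9 probe sets reached 2-fold in either population, where 0.822% of all probe sets past the filter did so in LSK and 0.639% in MP. With 1 array per group there is no test of these differences, and they stand between 1 pool and 1 pool.

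In LSK cells the largest genotype difference was that of Hdc on 1454713_s_at, 0.94, or 1.92-fold higher in the Smo-deficient pool. The other Hdc probe set differed by 0.33, so the size of the Hdc difference was not shared by its probe sets. Cpa3 differed by 0.46 and Mcpt8 by 0.23. Gzmb differed by -0.39 and Ms4a2 by -0.31 on 1443264_at, and Fcer1a by -0.80, with both of its levels near or below the filter. Cma1 (-0.08) and the dimmer Ms4a2 probe set (-0.05) were close to 0. The 5th and 95th percentiles of all probe sets past the filter were -0.35 and 0.48, so that Hdc on 1454713_s_at, Gzmb and Fcer1a were outside them and Cpa3 and Mcpt8 inside. The member median was -0.05 in LSK, beside -0.02 for all probe sets.

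In MP cells all 6 brighter probe sets were higher in the Smo-deficient pool. Mcpt8 differed by 0.60, a fold of 1.52, Hdc by 0.56 on 1451796_s_at and 0.34 on 1454713_s_at, and Cpa3 by 0.54. Ms4a2 differed by 0.28 on 1443264_at and Gzmb by 0.17. The 5th and 95th percentiles of all probe sets were -0.48 and 0.43, which leaves Mcpt8, Cpa3 and the first of these Hdc probe sets above them. The 3 dim probe sets were lower, from -0.06 for Ms4a2 on 1421475_at to -0.24 for Fcer1a. The member median was 0.28, beside -0.05 over all probe sets and -0.30 for the poly-A spikes.

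**Figure D3:**
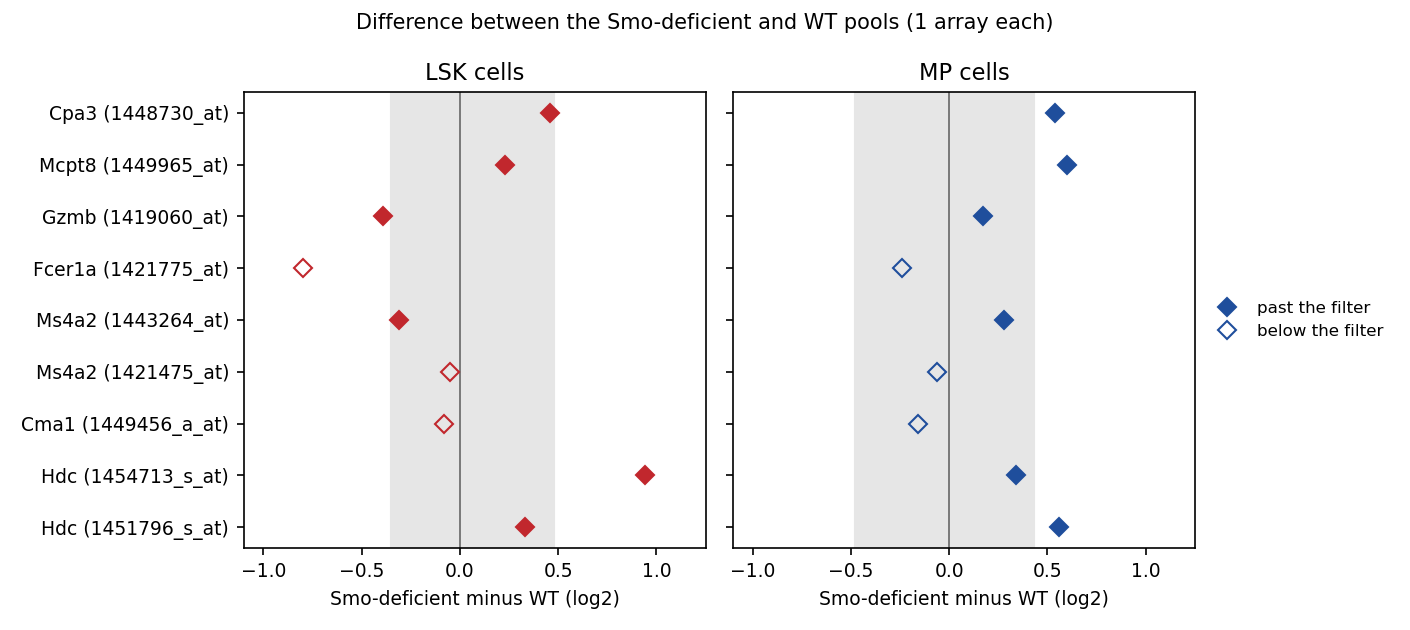
Smo-deficient minus WT difference in log2 intensity (x axis) for the 9 probe sets in LSK (left) and MP cells (right), 1 array per genotype: filled diamonds past the filter, open diamonds below it, grey band the 5th to 95th percentile of all probe sets past the filter. Hdc on 1454713_s_at lies at 0.94 in LSK, and Gzmb and Ms4a2 on 1443264_at change side between the panels.

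Neutrophil and monocyte genes differed between the genotypes in the same direction as Hdc, Cpa3 and Mcpt8. All 12 measured neutrophil and monocyte genes were higher in the Smo-deficient pool in both populations. Their medians were 0.66 in LSK and 0.43 in MP, beside -0.02 and -0.05 over all probe sets past the filter. The difference of Elane, which encodes neutrophil elastase, was 0.87 in LSK and 0.77 in MP, and that of the receptor gene Csf1r was 1.21 and 1.09. Erythroid genes had medians of -0.56 in LSK, with 3 of 9 genes higher in the Smo-deficient pool, and -0.54 in MP, with 1 of 9 higher, and Car1 differed by -1.40 and -0.31. The part of either in the genotype differences of the members was not tested. Eosinophil genes, which mark the remaining granulocyte lineage, had medians of 0.30 in LSK and -0.03 in MP, with the major basic protein gene Prg2 at 0.56 and -0.03 and the lectin gene Siglecf at 0.30 and 0.80.

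The members Cma1, Mcpt8 and Gzmb lie in a single cluster of protease genes on chromosome 14. Between Cma1 at one end and Gzmb at the other the RefSeq table lists 15 protein-coding genes, both included, and 13 of them were measured. Past the filter were Mcpt8, its neighbour Ctsg and Gzmb. Ctsg, which encodes the neutrophil protease cathepsin G, fell in LSK by a difference of -1.09 ± 0.05 (limma, adjusted p = 0.000141), with log2 levels of 13.40 in Smo-deficient LSK and 12.79 in WT LSK, against 14.52 in Smo-deficient MP and 13.84 in WT MP. It did not pass without the block. Ctsg was higher in the Smo-deficient pool by 0.61 in LSK and 0.69 in MP. The 10 measured genes below the filter, among them the mast cell protease genes Mcpt1, Mcpt2 and Mcpt4 and the granzyme genes Gzmc to Gzmg, had levels from 3.86 to 7.33 and LSK minus MP differences from -0.51 (Cma1) to 0.02 (Gzmc).

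**Figure D4:**
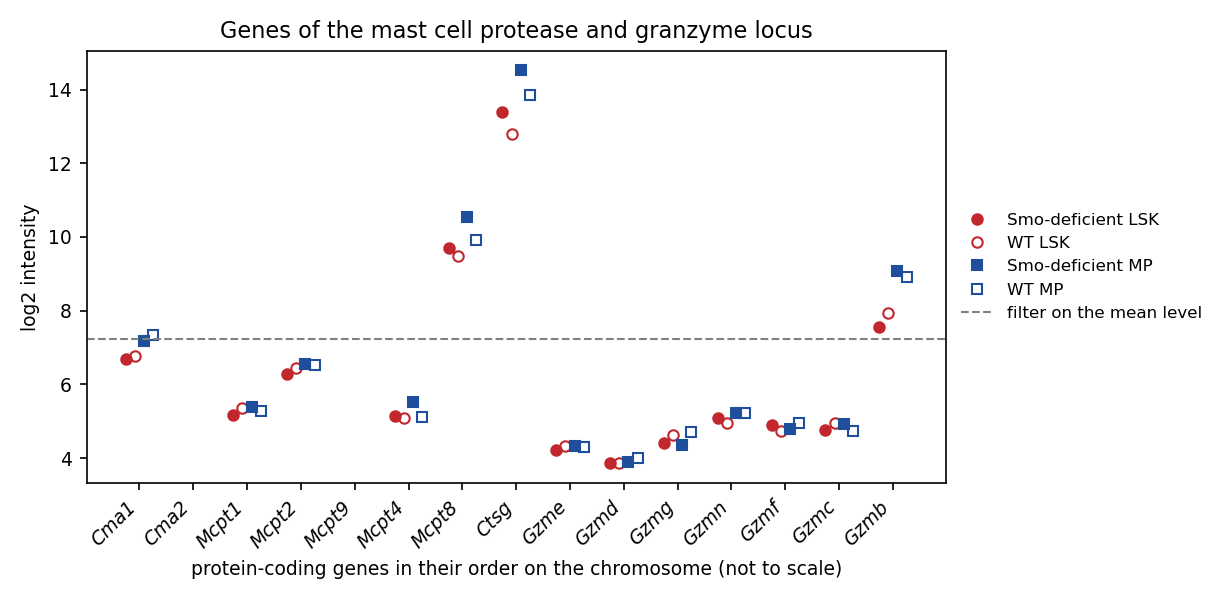
Log2 intensity (y axis) on the 4 arrays for the 15 protein-coding genes from Cma1 to Gzmb in chromosome order (x axis, not to scale), with circles for LSK, squares for MP, filled for Smo-deficient and open for WT, and a dashed line at the filter level. Only Mcpt8, Ctsg and Gzmb have a mean above the line, Cma2 and Mcpt9 have no probe set of their own, and brightness is not comparable between genes.

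Markers of mature mast cells were dim on all 4 arrays. Mcpt4 had log2 levels of 5.15 in Smo-deficient LSK and 5.10 in WT LSK, and 5.52 in Smo-deficient MP and 5.12 in WT MP. The mast cell receptor gene Mrgprb1 ranged from 4.33 to 4.38. The tryptase genes Tpsb2 and Tpsab1 lay at the filter level, and Tpsb2 differed by -0.14 ± 0.11 between LSK and MP without passing (adjusted p = 0.401). The basophil surface gene Cd200r3 ranged from 4.29 to 4.74, while the interleukin 3 receptor gene Il3ra, at 7.78 to 7.90, differed by 0.03 (adjusted p = 0.857). Of 16 measured cytotoxic lymphocyte genes, which share Gzmb with mast cells, 11 were below the filter, perforin (Prf1) and Ncr1 among them, and 0 of the 5 tested passed between LSK and MP. Of all tested probe sets 15.1% rose and 7.19% fell, so 0 of 5 is near the share of all probe sets. Among those 5 the largest LSK minus MP difference was 0.27 for Gzma (adjusted p = 0.128), and the largest genotype differences were those of Nkg7 (0.45 in MP) and Gzma (0.24 in LSK). The genotype medians of all 16 were 0.07 in LSK and 0.00 in MP, and below the filter Klrd1, named after its value was seen, differed by 0.78 in LSK.

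Signalling genes of the IgE receptor were compared between LSK and MP as well. Of 12 tested genes of that pathway 7 rose in LSK and 0 fell, where 15.1% of all tested probe sets rose and 7.19% fell. The 0 that fell is near the share of all probe sets. The kinase gene Fyn rose by 1.11 ± 0.11 (limma, adjusted p = 0.00128), the phospholipase genes Plcg2 by 1.04 and Plcg1 by 0.83, and the adaptor gene Lcp2 by 0.94. Another probe set of Plcg1 past the filter differed by 0.05. Fcer1g, which encodes the gamma chain that carries the receptor's signal and is shared with other Fc receptors, differed by -0.15 (adjusted p = 0.369). Between genotypes Fcer1g was higher by 0.72 in LSK and 0.76 in MP of the Smo-deficient pool, and Plcg2 by 0.10 and 0.51. Without the block 4 of the 7 passed, where calls over all tested probe sets went from 5013 to 1058.

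Among 16 tested granule and mediator genes 6 rose in LSK and 1 fell, where 15.1% of all tested probe sets rose and 7.19% fell. Without the block 3 passed as higher and 0 as lower, where calls over all tested probe sets went from 5013 to 1058. Slc18a2, the transporter that loads amines such as histamine into granules, rose by 1.95 ± 0.16 (limma, adjusted p = 0.000612), against the direction of Hdc. Its log2 levels were 8.96 in Smo-deficient LSK and 8.97 in WT LSK, and 7.30 in Smo-deficient MP and 6.72 in WT MP. The cyclooxygenase gene Ptgs2 rose by 1.24, and the vesicle GTPase genes Rab27b by 1.44 and Rab27a by 0.73, though another Rab27b probe set differed by -0.05. The gene that fell was Hs6st1 (-0.65, adjusted p = 0.044), which encodes a heparan sulfate sulfotransferase, and it was named with the heparin enzyme Ndst2 for its genotype difference: -0.64 for Hs6st1 and -0.67 for Ndst2 in MP, with 0.08 and 0.05 in LSK. Of 6 tested genes on the list of proteases, Ctsg fell and Ctsc, whose product activates granule serine proteases, rose by 0.51 ± 0.08 (adjusted p = 0.00537), and neither passed without the block. The cathepsin gene Ctss differed by 0.90 in LSK and 0.68 in MP between genotypes.

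**Figure D5:**
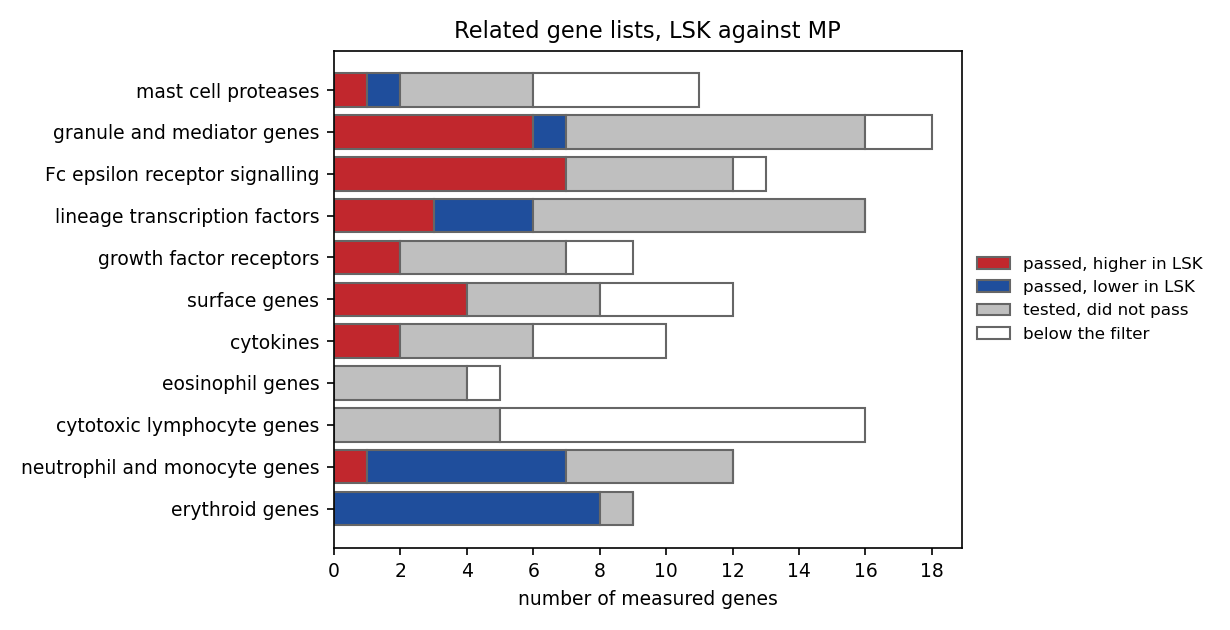
Number of measured genes (x axis) in 11 lists related to mast cells and basophils, split into genes higher in LSK, genes lower in LSK, genes tested that did not pass (limma, adjusted p under 0.05) and genes below the filter. Receptor signalling has 7 higher and 0 lower, and erythroid genes have 8 lower and 0 higher. Of all tested probe sets 15.1% were higher in LSK and 7.19% lower.

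Of 16 tested transcription factors of the lineage 3 fell and 3 rose in LSK. Of all tested probe sets 7.19% fell and 15.1% rose, so the share of higher genes was near that of all probe sets. Gata1 fell by a difference of -0.97 ± 0.09 (limma, adjusted p = 0.001), the monocyte factor Irf8 by -1.08 and Cebpa, which acts in granulocyte and basophil formation, by -0.56. Runx1 rose by 0.64 on its brightest probe set, while its other probe sets past the filter ranged from -0.03 to 0.72, and the other 2 that rose, named here after their values were seen, were Gata2 (0.41) and Mitf (0.45), both factors of mast cell formation. After quantile normalization 1 rather than 3 passed as higher, and with no block none passed in either direction. Over all tested probe sets 1058 rather than 5013 passed with no block. Between genotypes the difference of Id2, which encodes an inhibitor of helix-loop-helix factors, was 1.43 in LSK against 0.49 in MP. That of Irf8 was 1.26 in LSK and 0.86 in MP on its brightest probe set. The other Irf8 probe set past the filter had the opposite order, 0.80 in LSK and 1.02 in MP. Gata1 was lower in the Smo-deficient pool, by -0.79 in LSK and -0.54 in MP.

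Growth factor receptor and surface genes of these cells are set beside the 15.1% of all tested probe sets that rose in LSK. Of 7 tested receptor genes 2 rose, the thymic stromal lymphopoietin receptor gene Crlf2 (0.93) and Il4ra (0.45), and of 8 tested surface genes 4 rose, the integrin gene Itga2b (0.85), Cd48 (0.79), Cd69 (0.78) and the tetraspanin gene Cd9 (0.78). The other 2 Il4ra probe sets past the filter each differed by -0.11, and after quantile normalization 1 of the receptor genes passed. Without the block 1 of the 2 receptor genes and none of the 4 surface genes passed. Calls over all tested probe sets went from 5013 to 1058 there. Kit, the stem cell factor receptor by which both populations were sorted, differed by 0.22 without passing (adjusted p = 0.0825). Csf2ra, the alpha chain of the receptor for granulocyte-macrophage colony-stimulating factor, was higher in the Smo-deficient pool by 0.57 in LSK and 0.84 in MP on its brighter probe set and by 0.00 and 0.02 on the other, and Csf2rb, the beta chain shared with the interleukin 3 receptor, by 0.36 and 0.68. Of 6 tested cytokine genes the chemokine genes Ccl4 (1.21) and Ccl3 (0.99) rose in LSK, though not without the block, and the interleukin genes Il4, Il13, Il5 and Il6 were below the filter.

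Genes of other lineages were lower in LSK as well, and their part in the differences of the members was not tested. Over all tested probe sets 7.19% fell and 15.1% rose. Of 12 tested neutrophil and monocyte genes 6 fell, Ctsg among them, and 1 rose, the growth factor receptor gene Csf3r at 0.77, with Elane at -1.64, Ms4a3 at -1.56, Csf1r at -1.13 and Prtn3 at -1.09. Other Csf1r probe sets past the filter differed by -0.82 and -0.66. Of 9 tested erythroid genes, Gata1 included, 8 fell, with Ermap at -1.98, Rhag at -1.97, Car1 at -1.83 and Klf1 at -1.69. Without the block 1 of the 6 neutrophil and monocyte genes and 4 of the 8 erythroid genes passed as lower. Calls over all tested probe sets, in both directions, went from 5013 to 1058 there. The differences of the late granule genes Camp (-0.16) and Ltf (0.01), named after their values were seen, did not pass. Among 5 measured eosinophil genes 0 of 4 tested passed by limma, and Prg2 differed by -0.28 (adjusted p = 0.192).

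The genes whose levels ran most like those of 4 members over the 4 arrays were sought among 11899 other genes past the filter, by the distance between levels centred on each gene's mean. Nearest to Cpa3 were the peroxisomal transporter gene Abcd2 (distance 0.08 on the log2 scale), Ms4a4c (0.09), Rgcc (0.12), Msrb1 (0.12) and Emb (0.12). Nearest to Hdc on 1454713_s_at were Ifi202b (0.28), Ms4a3 (0.31), Elane (0.35), Igsf6 (0.37) and Cldn15 (0.37). Ms4a2 on 1443264_at had Prss50 (0.21), Tent5a (0.25), St8sia6 (0.29), Csrp3 (0.30) and Slc45a3 (0.31) nearest to it. Fcer1a, dim as it was, had Gas2l1 (0.12), the platelet factor 4 gene Pf4 (0.12), Pls1 (0.14), Unc119 (0.15) and the platelet receptor gene Clec1b (0.18). Pf4 differed by 0.37 between LSK and MP and by -0.67 between genotypes in LSK, beside 0.38 and -0.80 for Fcer1a. With 4 arrays many genes lie at like distances, so these names describe the profiles.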

How the data were processed

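Expression was measured on Affymetrix arrays in 4 samples, from 20 ng of total RNA each amplified in 2 cycles per the labels' protocols. The authors deposited intensity values made with RMA, per the submitters' processing notes. RMA by its usual definition corrects background, quantile-normalizes and summarises probe sets. The sources used here give no version of RMA. Quantile normalization of the deposited values moved calls lower in LSK from 1618 to 2562, and calls higher in LSK from 3395 to 2984. The 4 arrays as deposited thus did not share the same distribution of values. How they had been normalized was not tested. Values ran from 12.3 to 44290.5, so they were read as linear and log2 was taken with no pseudocount. The number of arrays limits the precision.

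Of 45101 probe sets 64 controls were set aside. Genes came from the platform's annotation table, and each related gene was read on the brightest probe set assigned to it alone. LSK was tested against MP with limma 3.58.1 in R 4.3.3 (lmFit, eBayes with trend, two-sided) over the 22518 probe sets above the 50th percentile of mean level, with the pool as a block and Benjamini-Hochberg adjustment. The pairing comes from the pool of mice shared by both populations, and deviations within a pool correlated across probe sets at r = 0.51. Each pool is 1 genotype, so this correlation cannot tell the pool from the genotype. Genotypes have 1 array each and were not tested. The test was checked on simulated data. Named were the 8 genes, per related list up to 4 genes that passed with the largest LSK minus MP difference and up to 2 with the largest genotype difference, and the 5 nearest profiles of 4 members. Members and lists were chosen with earlier results of these data known. Alternatives were other normalizations, filters, an added offset, no block, and arrays or pools left out. Scanner files, Lyn, Ly6a and Il1rl1 were not analysed here.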

Additional observations from a re-analysis of the deposited data

Results flagged for a closer look

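For Gzmb and 1 of the 2 Ms4a2 probe sets the genotype difference had opposite signs in the 2 populations. Gzmb was lower in Smo-deficient LSK than in WT LSK by a difference of -0.39 and higher in Smo-deficient MP than in WT MP by 0.17, so the LSK value less the MP value was -0.56. Ms4a2 on 1443264_at had -0.31 in LSK and 0.28 in MP, a difference of -0.59. The dimmer Ms4a2 probe set, 1421475_at, had -0.05 in LSK and -0.06 in MP. Each group is 1 array, and whether these differences part was not tested.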

How the results depend on the processing

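All 6 member probe sets past the filter kept their direction and passed after quantile normalization, cyclic loess, the filter at the 60th percentile and 32 added before log2. Over all tested probe sets 5546 passed after quantile normalization, 5709 after cyclic loess, 4682 at the 60th percentile and 5075 with 32 added. With no filter 8 of 9 member probe sets passed, all but Fcer1a, and 5475 of all 45037 probe sets did. Without the pool as a replicate block 3 of 6 member probe sets passed, and 1058 of all probe sets against 5013. With each array left out in turn (fitted without the block, the lone array of an arm taken to vary like the other arm) 2 to 3 member probe sets and 398 to 1156 of all probe sets passed, and the member median of LSK minus MP lay between -0.94 and -0.65. Only Gzmb passed in all 4 of these fits, with differences from -1.45 to -1.06. Ms4a2 did not pass without Smo-deficient LSK (-1.05), nor Hdc on 1451796_s_at without Smo-deficient LSK (-1.51) or WT LSK (-1.18). Hdc on 1454713_s_at passed only without Smo-deficient LSK (-1.94). Cpa3 and Mcpt8 passed in none: Cpa3 differed by -0.66 without Smo-deficient LSK, -0.19 without WT LSK, -0.16 without Smo-deficient MP and -0.69 without WT MP, and Mcpt8 by -0.34 without Smo-deficient MP. The member median was -0.82 in the Smo-deficient pool alone. With no filter 281 probe sets differed 2-fold between genotypes in LSK, against 185. Of all calls between LSK and MP 32.3% were lower in LSK, and 46.2% after quantile normalization. Genotype differences of the 9 member probe sets kept their sign under each scaling, except that the dim Ms4a2 probe set in LSK was at 0.00 after cyclic loess. The causes were not tested. Differences of dim probe sets are limited by signal over background.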
